A study of Mus musculus with 8 samples.

Results

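Among 3846902 nucleotides with cDNAs in the merged SRSF3 iCLIP track of mouse heart cells, 1155 carried 11 or more cDNAs outside the dominant RNAs. The track sums 5 libraries, taken here as the 2 replicates and 3 further ones. The 1155 positions joined into 334 compact sites. The sites were chosen by that count alone, in the merged track on the mm9 genome, with the sign of the value as the strand and positions within 50 nt joined. Left out by rule were chromosome M (501 hot positions), an interval on the minus strand of chromosome 19 (2262), an interval on the plus strand of chromosome 17 (905) and unplaced sequences (4), which leaves 1155 of the 4827 hot positions and 334 of the 410 sites. The study has 8 samples. It compared 3 SRSF3 knockout and 3 control hearts, which are not analysed here, and mapped SRSF3 binding in 2 iCLIP replicates. For iCLIP, cardiomyocytes of newborn C57BL/6 mice (stage P0-1) received 15 µg of modified mRNA for SRSF3 fused to GFP with 21 µL of Lipofectamine, and 48 h later 100 mJ of UV light at 254 nm. Both replicates therefore carry added, tagged SRSF3. The cells and the protein of the 3 further libraries are known here only from the name of the merged track, and no library labelled as a control was used.

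SRSF3 is a small SR protein, a family of splicing factors that bind exons and help to define them, and it also acts in RNA export and 3′ end formation. In iCLIP, UV light joins protein to RNA, reverse transcription stops at the joined base, and each cDNA marks 1 nucleotide. Small nuclear RNAs such as U1 help to form the spliceosome, 7SK RNA holds the elongation factor P-TEFb inactive, and Y RNAs bind the Ro60 protein. Such short, abundant RNAs can give narrow sites with nothing around them, whereas a long messenger RNA can give peaks within a covered transcript. The number of cDNAs at a site rises with the amount of its RNA and with how often it was crosslinked, and the 2 cannot be told apart here. In such bulk libraries fewer cells of a type and less RNA per cell also cannot be told apart.

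The RNAs below are the likely identities of the sites that could be named, and are shown because they turn positions into likely known molecules. No annotation of mm9 was used, so no position was looked up. Instead, the distance between the strongest positions of 2 sites was compared with the distances between small RNA genes of the same chromosome and strands in GENCODE M21, which is on another build, GRCm38. Among 199 small RNA genes with a proper name, 4 of 1606 site pairs matched a gene pair within 10 nt of the gene bodies. A site on the plus strand of chromosome 6 (strongest position 47731678) and one on its minus strand (47738106) lay 6428 nt apart, and the starts of the Y RNA genes Rny3 and Rny1 lie 6556 nt apart. Another site of chromosome 6, minus strand, at 124691283, lay 76959605 nt from the first and 76953177 nt from the second, against 76959662 nt from Rny3 to Rnu7 and 76953106 nt from Rny1 to Rnu7. No other pair of the 199 genes, on any chromosome, on the same strands had these 3 distances, and the remaining match is not reported here. The name 7SK, for the strongest site of chromosome 9, rests here on the generally known place of Rn7sk, with no annotation of mm9 to check it against. The sequences are those of GENCODE M21, 5′ to 3′, with bases 1 to 300 of 7SK and the others whole. Capitals mark every match to the words ACAAC or ACAUC or ACUAC or ACUUC or UCAAC or UCAUC or UCUAC or UCUUC, the 8 forms of a C-containing word that is known as an SRSF3 motif, searched on the RNA strand only, with overlaps allowed.
Rn7sk: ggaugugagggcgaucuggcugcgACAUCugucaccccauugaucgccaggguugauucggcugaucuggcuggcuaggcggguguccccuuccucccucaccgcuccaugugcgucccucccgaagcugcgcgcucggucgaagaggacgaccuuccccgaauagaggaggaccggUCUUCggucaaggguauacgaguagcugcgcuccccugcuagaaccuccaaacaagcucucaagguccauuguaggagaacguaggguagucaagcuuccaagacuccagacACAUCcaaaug
Rny3: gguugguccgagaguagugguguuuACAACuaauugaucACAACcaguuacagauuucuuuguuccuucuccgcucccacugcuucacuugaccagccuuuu
Rny1: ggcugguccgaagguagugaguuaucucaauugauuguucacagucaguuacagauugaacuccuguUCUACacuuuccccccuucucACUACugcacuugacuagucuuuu
Rnu7: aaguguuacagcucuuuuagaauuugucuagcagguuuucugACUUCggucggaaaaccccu
Gm22513: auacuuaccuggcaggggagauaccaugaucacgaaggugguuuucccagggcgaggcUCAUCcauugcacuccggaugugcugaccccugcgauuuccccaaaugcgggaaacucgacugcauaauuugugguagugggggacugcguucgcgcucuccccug

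The 7SK RNA (331 nt) holds 3 such words, Rny3 (102 nt) and Rny1 (112 nt) hold 2 each, and Rnu7 (62 nt) and Gm22513 (164 nt) hold 1 each. Words of this kind are common. Of the small RNA transcripts of GENCODE within 10% of the same length, 92.4% held at least 1 for 7SK, 35.0% for Rny3, 33.7% for Rny1, 23.2% for Rnu7 and 56.9% for Gm22513. A match is a description of the letters, and where in each RNA the cDNAs fell was not determined. The last sequence belongs to a weaker match. A search over all 6084 small RNA genes, with gene pairs and site pairs within 200 kb, gave a match for 6 of 44 site pairs. One of them, on chromosome 12, joins the site at 55797796 on the plus strand with that at 55835706 on the minus strand. Their 37910 nt match Gm22513 and Gm24305, 2 snRNA genes of 164 nt that lie 37936 nt apart and whose sequence starts with the bases U1 uses to pair with 5′ splice sites. A second pair of genes on chromosome 12 (Gm23347 and Gm25750) and 2 pairs elsewhere have a matching distance too, so U1 is only a likely name for this locus. For U1 and Y RNAs many near-identical copies exist in the genome, and no label or header says how reads with several matches were counted, so counts of 1 copy are uncertain.

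Restricting the search mattered for these names. Sites in groups and pairs within 3 kb were left out after matches inside groups had been seen, and with all sites more than 300 nt apart 40 of 4355 site pairs matched a pair of the 199 genes. Of the other matches within 200 kb, 3 are Gm24049 with Gm25541 on chromosome 2, Scarna10 with Mir8113 on chromosome 6, and Gm23403 with Gm25019 on chromosome 6, whose distance is shared by 100 gene pairs elsewhere. None of these 3 was used as a name. A comparison of the base-by-base profiles of the sites with each other and with the left-out RNAs was also tried. It gave no distinct best match and was not used.

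The sites took 39743 of 4207555 merged cDNAs, or 0.945%. They held 1.099% of the 815414 cDNAs of replicate 1, 0.881% of the 2253688 of replicate 2, and 0.960% of the 1138453 that the merged track holds beyond them. That excess is taken to come from 3 further libraries of the 5 in the merged track's header. It is called the other libraries below. The headers give both replicates 1 library identifier, and nothing says whether they came from separate cultures, so the tests below cover counting error only. At these depths, a site with no cDNA in a replicate allows up to 3.68 cDNAs per 1000000 of the library (CPM) in replicate 1 and 1.33 in replicate 2. Of the 334 sites, 301 had cDNAs in both replicates, 23 in replicate 2 alone, 4 in replicate 1 alone and 6 in neither. Opposite the 334 sites, on the other strand, lay 1 cDNA in all.

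Just inside the threshold, 152 positions had 11 merged cDNAs, with a median of 2 (0 to 7) from replicate 1 and 6 (0 to 11) from replicate 2. Just outside it, 182 positions had 10, with medians of 2 (0 to 6) and 5 (0 to 9). The largest gap that was joined was 50 nt and the smallest that was not was 52 nt.

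Most sites were 1 nucleotide, but most cDNAs were in broad ones. Of the 334 sites, 191 (57.2%) had a single hot position, 29 were 2 nt wide, 41 were 3 to 9 nt, 32 were 10 to 29 nt, 34 were 30 to 99 nt, and 7 were 100 nt or wider. The 143 sites with more than 1 hot position had a median width of 11 nt (95% interval 6 to 16). The 24 sites with 10 or more hot positions held 58.3% of the merged cDNAs of all sites. The strongest site alone held 15.9%, the 10 strongest 42.7% and the 20 strongest 55.9%, against a median of 21 cDNAs per site.

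**Figure D1:**
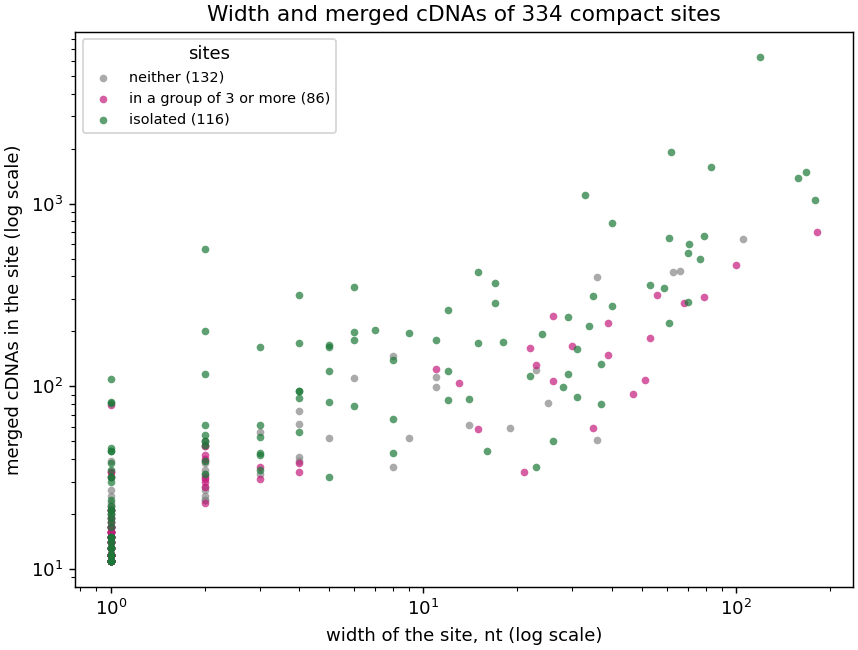
Width of each compact site in nt (horizontal, log scale) against its merged cDNAs (vertical, log scale), 1 point per site, coloured by class: isolated, in a group of 3 or more sites within 20 kb, or neither. Sites 1 nt wide lie at the left, and the broad sites at the upper right hold most of the cDNAs.

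The surroundings of the sites fell into 3 classes, defined on merged counts alone. A site was called isolated when it held 50% or more of the cDNAs on its strand from 5 kb before to 5 kb after it. By this measure 116 sites (34.7%) were isolated, and they held 74.1% of the sites' cDNAs (29461). A further 86 sites fell into groups of 3 or more within 20 kb on a strand (5272 cDNAs), none of them isolated, and 132 were neither (5010 cDNAs). The median isolated site was 4 nt wide with 82 cDNAs, while the median was 1 nt for both other classes, with 16.5 cDNAs for grouped sites and 15 for the rest. Of 41 sites at least 30 nt wide, 24 were isolated, 12 were grouped and 5 were neither. Each of those 5 was 1 part of a locus cut in 2, so their class depends on the joining distance. With positions within 500 nt joined, the loci on chromosomes 3, 5 and 11 held 94.6%, 96.2% and 89.5% of the surrounding cDNAs. Those on chromosomes 7 and 14 held 41.5% and 49.2%. Chromosome 14 had 64 sites, 55 of them grouped, chromosome 2 had 40, chromosome 1 had 27, and chromosome 6 had 25 with no group. Isolated sites were most numerous on chromosome 6 (14) and chromosome 18 (13).

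The strongest site, on the minus strand of chromosome 9 from 78023145 to 78023263, is the likely 7SK RNA. It held 6302 cDNAs over 119 nt, 107 of these nucleotides were hot, and it made up 99.8% of the strand's cDNAs within 5 kb. Replicate 1 had 1764 of its cDNAs (2163 CPM), replicate 2 had 3207 (1423 CPM) and the other libraries 1331. The mean was 1793 ± 523 CPM (SD, n = 2). No base stood far above the rest, and the strongest, 78023166, took 248 cDNAs or 3.94% of the site. The cDNAs thus covered nearly every base of the stretch, which is shorter than the 331 nt of the RNA.

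The likely U1 locus on the plus strand of chromosome 12, from 55797766 to 55797827, came next with 1924 cDNAs, 504 in replicate 1 (618 CPM), 859 in replicate 2 (381 CPM) and 561 in the other libraries. Its mean was 500 ± 168 CPM (SD, n = 2). Here 1 base, 55797796, took 492 cDNAs, 25.6% of the site. Its likely partner on the minus strand of the same chromosome, from 55835704 to 55835707, had 73 cDNAs, 11 in replicate 1, 19 in replicate 2 and 43 in the other libraries. The plus-strand site held 99.2% of its strand's cDNAs within 5 kb. The partner held 47.4% and so was not isolated.

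At the likely Rny3, plus strand of chromosome 6 from 47731620 to 47731690, 601 cDNAs fell over 71 nt, 124 in replicate 1 (152.1 CPM), 343 in replicate 2 (152.2 CPM) and 134 in the other libraries. At the likely Rny1, minus strand from 47738105 to 47738115, 99 cDNAs fell over 11 nt, 19 in replicate 1 (23.3 CPM), 53 in replicate 2 (23.5 CPM) and 27 in the other libraries. Both replicates gave nearly the same level at each site. The likely Rny3 site held 93.5% of the strand's cDNAs within 5 kb. The likely Rny1 site held 36.9%, so it was not isolated. The likely U7, the small RNA that guides 3′ end cleavage of histone messages, was a single base with 12 cDNAs, 3, 4 and 5 in the same order. It held 4.56% of the cDNAs of its surroundings and so sat in a covered region, unlike a stand-alone short RNA. The labels give an RNA length of 80 to 200 nt for iCLIP, and Rnu7 is 62 nt. The name U7 rests on distances alone and is uncertain.

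Near the likely Y RNAs, 4 more sites lay on the minus strand of chromosome 6. The strongest, from 47689903 to 47689942, had 783 cDNAs, 153 in replicate 1 (188 CPM), 358 in replicate 2 (159 CPM) and 272 in the other libraries, and 94.5% isolation. The sites from 47707744 to 47707759 (44 cDNAs), at 47728285 to 47728286 (39) and at 47600855 (17) were weaker. In RefSeq on GRCm38.p6, Rn4.5s, a gene for the rodent 4.5S RNA, lies 8 genes from Rny3 on this chromosome. Whether any of these 4 sites is such a gene was not tested.

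Another 2 loci are likely known RNAs by the places where these genes are generally known to lie, with no annotation of mm9 to check them against. Both are given with positions within 500 nt joined, so each holds 2 compact sites and the bases between them. On the minus strand of chromosome 4, between 43505731 and 43505874, where Rmrp, the RNA of the mitochondrial RNA processing enzyme, is likely, 323 cDNAs fell over 144 nt. They divided into 90 in replicate 1 (110 CPM), 166 in replicate 2 (73.7 CPM) and 67 in the other libraries. Its compact sites were 8 nt from 43505731, with 147 cDNAs, and the single base 43505874. The locus held 64.2% of the strand's cDNAs within 5 kb. On the minus strand of chromosome 14, between 51427151 and 51427267, where Rpph1, the RNA of RNase P, is likely, 161 cDNAs fell over 117 nt. Replicate 1 had 31 (38.0 CPM), replicate 2 had 100 (44.4 CPM) and the other libraries 30. Its compact sites had 51 and 59 cDNAs, and the locus held 49.2% of the strand's cDNAs within 5 kb.

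The other strong sites keep their positions as names. On the plus strand of chromosome 16, from 11144124 to 11144206, 1587 cDNAs fell over 83 nt. Replicate 1 had 481 (590 CPM), replicate 2 had 642 (285 CPM) and the other libraries 464. Its base 11144153 took 339 cDNAs, and smaller peaks flank it on both sides. Also on chromosome 16, on the minus strand from 57391636 to 57391793, 1384 cDNAs were spread over 158 nt, 268 in replicate 1 (329 CPM), 626 in replicate 2 (278 CPM) and 490 in the other libraries. No base of that site exceeded 78. On chromosome 6, the site from 3151439 to 3151517, plus strand, had 663 cDNAs over 79 nt, 130 in replicate 1 (159 CPM), 304 in replicate 2 (135 CPM) and 229 in the other libraries. Far along the same chromosome, the site from 128749492 to 128749561, minus strand, had 537 over 70 nt, with 107 (131 CPM), 239 (106 CPM) and 191 in the same order. Both were isolated, as was the site from 68851723 to 68851783 on chromosome 18, plus strand, which had 648 over 61 nt, with 124 (152 CPM), 281 (125 CPM) and 243. The site from 123371061 to 123371137 on chromosome 9, plus strand, had 498 over 77 nt, with 80 (98.1 CPM), 192 (85.2 CPM) and 226. Replicate 1 was above replicate 2 in CPM at each of these 4 sites, by less than the test could call. The site from 118219622 to 118219684 on chromosome 7, minus strand, had more in replicate 2, with 68 (83.4 CPM), 266 (118 CPM) and 89 of its 423 cDNAs, and 35.8% of the cDNAs around it fell inside.

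Among the loci cut in 2 by gaps of over 50 nt, the 3 with most cDNAs are given here. Joining positions within 500 nt gave 1990 cDNAs over 309 nt on the plus strand of chromosome 5 (147072568 to 147072876), where 96.2% of the surrounding cDNAs fell inside. Replicate 1 had 412 CPM and replicate 2 had 368 CPM there. It gave 1833 over 198 nt on the plus strand of chromosome 3 (5860604 to 5860801), with 419 CPM in replicate 1 and 420 CPM in replicate 2. It gave 1536 over 280 nt on the minus strand of chromosome 11 (108873061 to 108873340), with 379 and 330 CPM in the same order. The parts of 1 locus differed in form: on chromosome 3 the downstream part had 19 hot positions over 33 nt with 1112 cDNAs, and the upstream part had 16 over 105 nt with 642. The type of these 3 loci was not determined. Joined in the same way, the chromosome 9 plus-strand site at 123371061 lay in a locus of 674 cDNAs over 161 nt. The chromosome 7 site at 118219622 lay in a locus of 491 cDNAs over 120 nt.

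**Figure D2:**
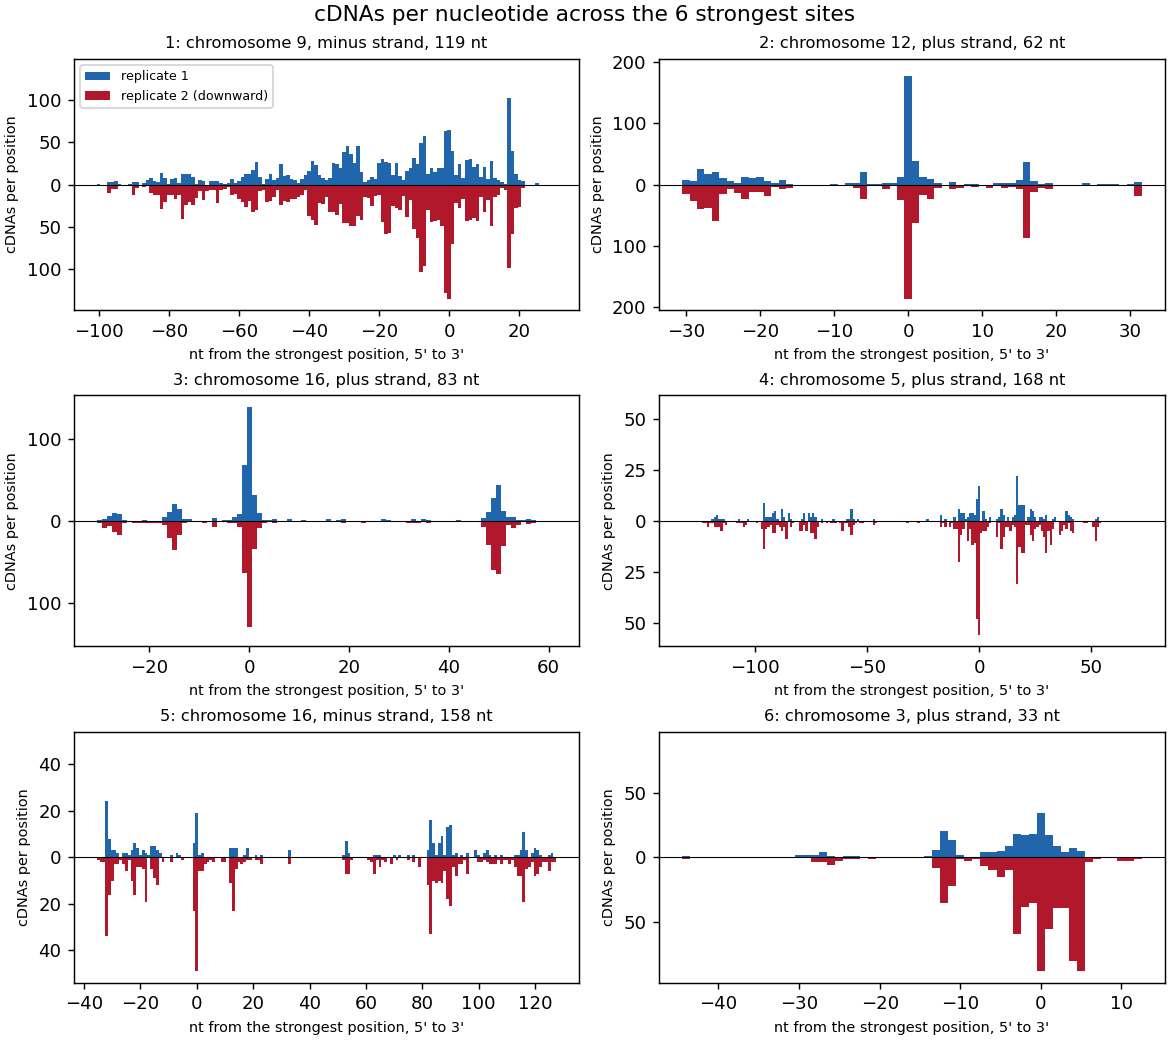
cDNAs per nucleotide across the 6 strongest sites, with replicate 1 upward and replicate 2 downward, against the distance in nt from the strongest merged position, read 5′ to 3′ (20 nt beyond each end are shown). The chromosome 9 site is filled throughout, the chromosome 12 and 16 plus-strand sites have 1 main base. At those 2 plus-strand sites the strongest base is the same in both replicates, and at the sites ranked 1, 4 and 5 it differs.

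The narrowest strong site was of another kind. On the minus strand of chromosome 18, positions 10151140 and 10151141 together held 561 cDNAs, and 526 of them, 93.8%, fell on the first base, the highest single position of all. Replicate 1 had 170 (208 CPM), replicate 2 had 265 (118 CPM) and the other libraries 126. Of the 74 isolated sites at most 9 nt wide, 30 had 50 or more cDNAs and 16 had 100 or more. On the plus strand of chromosome 4, the base 105310457 took 155 of the 201 cDNAs of a site of 2 nt, with 38 at the site in replicate 1 (46.6 CPM), 103 in replicate 2 (45.7 CPM) and 60 in the other libraries. A site of 4 nt from 20752450 on chromosome 13, minus strand, held 315, with 72, 179 and 64 in the same order. The type of these narrow sites was not determined.

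Grouped sites were peaks within long covered transcripts. The largest group had 48 sites and 4325 cDNAs from 55563169 to 55584699 on the minus strand of chromosome 14, where Myh6, the adult cardiac myosin heavy chain, is likely. Replicate 1 had 1397 CPM in these sites and replicate 2 had 1239 CPM (mean 1318 ± 111, SD, n = 2). It includes the widest site of all, 182 nt from 55578535 to 55578716, with 702 cDNAs. That site held 6.41% of the cDNAs around it, the highest share in the group. The site from 55577487 to 55577586 in the same group had 459 cDNAs over 100 nt, 96 in replicate 1 (118 CPM), 322 in replicate 2 (143 CPM) and 41 in the other libraries. On the opposite strand of chromosome 14, 7 sites lay between 55592301 and 55608219 with 132 cDNAs, at the likely Myh7 locus. Which RNA of that strand they mark was not tested. The plus strand of chromosome 1 had 12 sites and 452 cDNAs from 137744294 to 137748703, where Tnnt2, cardiac troponin T, is likely. On chromosome 2 lay 10 sites in the likely giant muscle protein titin (76726112 to 76792772, minus, 202 cDNAs), 6 in the likely Mybpc3, cardiac myosin-binding protein C (90961203 to 90974670, plus, 92 cDNAs), and 3 in the likely Actc1, cardiac actin (113873296 to 113875041, minus, 69 cDNAs). These names rest on the generally known places of the genes, with no annotation of mm9 to check them against. As far as they hold, the transcripts are those of heart muscle cells, the labelled cell type. More minus-strand sites of chromosome 2 lay over 20 kb from the likely titin group and were classed as neither. They were the bases 76582146 (11 cDNAs), 76591209 (20), 76620080 (11) and 76674821 (17). They may belong to the same transcript, so the class of neither can also hold peaks of grouped transcripts.

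**Figure D3:**
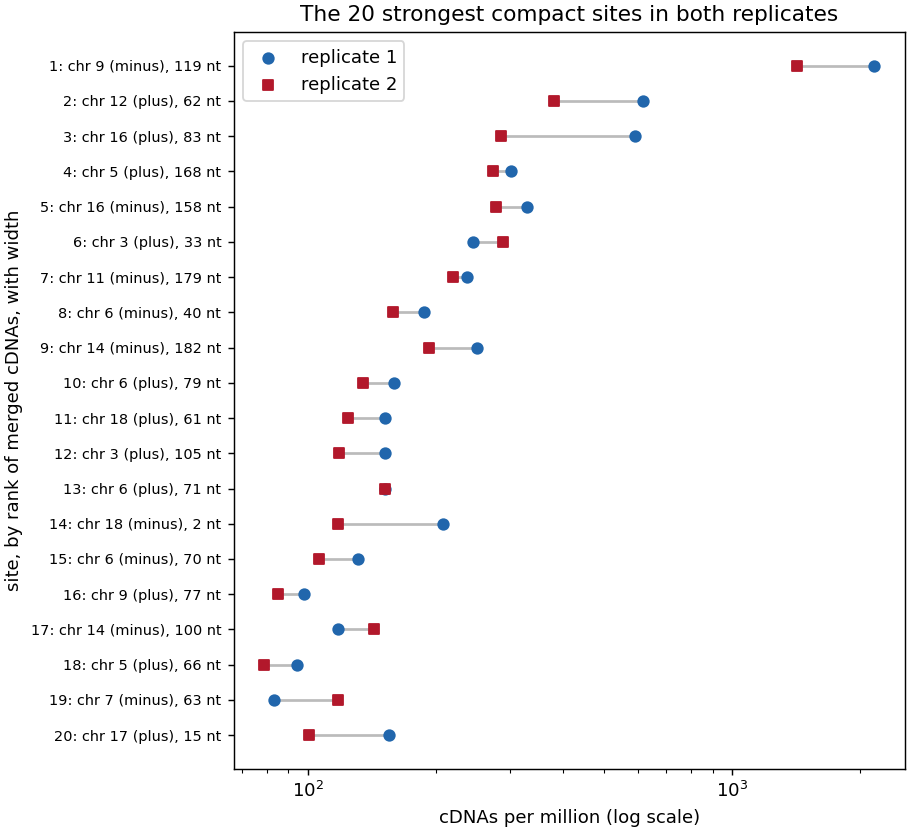
CPM (log scale) of the 20 sites with most merged cDNAs, in replicate 1 (circles) and replicate 2 (squares), joined by a line. Each row is 1 site with its rank, chromosome, strand and width. The chromosome 9 site stands above all others in both replicates, and the gap between replicates is widest at the site ranked 3.

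How the cDNAs of a site divide between replicates was not used to choose it, since the rule used their sum with the other libraries. Across the 334 sites, log2(CPM + 1) in the replicates had a Pearson correlation of 0.87 and the CPM a Spearman correlation of 0.76, given as a description because all sites share the same 2 libraries. In 95 of the 143 sites with 2 or more hot positions the strongest base was the same in both replicates, and in 114 it lay within 2 nt. These counts are descriptions. In the 29 sites of 2 nt the strongest bases always lie within 2 nt, and tied bases counted as the same if any was shared. The hot positions were also chosen on a sum that holds both replicates. The difference between replicates was tested at each site with 10 or more cDNAs in the 2 together (two-sided exact binomial test of replicate 1 among both, with the expected share from the totals, adjusted by Benjamini-Hochberg over all 339 such sites of the track). Of 271 sites tested, 16 were higher in replicate 1 and 1 in replicate 2 at a 5% false discovery rate. Without replicate 1, 14 of the 16 would still have a base with 11 cDNAs, and without replicate 2 the 1 site would not, so it was a member only through the replicate in which it was high. Over all tested sites of the track, 8.85% (30 of 339) were called higher in replicate 1 and 0.295% higher in replicate 2. Among the sites described here the shares were 5.90% (16 of 271) and 0.369%. These sites are most of the 339, so the left-out RNAs had a larger share of calls towards replicate 1. The left-out sites held 72849 merged cDNAs in 15 sites of chromosome 19 and 31839 in 28 of chromosome 17. Chromosome M had 21359 in 30 sites and unplaced sequences 69 in 3, against 39743 in the 334 sites. The test can call smaller differences where counts are higher, so these shares are not like for like. The median log2 ratio of replicate 1 to replicate 2 was 0.16 over the 334 sites and 0.14 over all 410.

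Of the 17 sites that differed, 6 were among the 20 strongest. The likely 7SK site was 0.60 higher in replicate 1 on the log2 scale (adjusted p = 3.7e-41 by the exact binomial test), the likely U1 site 0.70 (adjusted p = 3.4e-15), and that on chromosome 16 at 11144124 was 1.05 higher (adjusted p = 9.8e-30). By the same exact test, the site of 2 nt on chromosome 18 was 0.82 higher (adjusted p = 4.5e-07), and a site of 15 nt on the plus strand of chromosome 17 at 46541073, with 127 cDNAs in replicate 1 and 227 in replicate 2, was 0.63 higher (adjusted p = 0.0020). The likely Rny3 site, with 152.1 and 152.2 CPM, had an adjusted p of 1 in the same exact test. The site called higher in replicate 2 was the base 38143991 on the minus strand of chromosome 13, which had 1 cDNA in replicate 1, 36 in replicate 2 and 7 in the other libraries, given as a description only.

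The largest ratios towards replicate 1 included that of the chromosome 16 site at 11144124 given above, with 1587 merged cDNAs. The others were at sites with 13 to 222 merged cDNAs. The base 111576571 on the minus strand of chromosome 7 had 9 cDNAs in replicate 1 and 1 in replicate 2, and the base 38730229 on the plus strand of chromosome 12 had 9 and 5. At 35385003 on chromosome 14, minus strand, the counts were 17 and 15, and at 2536996 on chromosome Y, plus strand, 25 and 23. The site of chromosome X at 149358191, minus strand, had 40 in each replicate. Since replicate 2 was 2.76 times as deep, an equal count is a log2 ratio of 1.47. The other sites of this kind were at 72756956 on chromosome 6 (16 and 15), 41356146 on chromosome 18 (18 and 18), 107973763 on chromosome 11 (57 and 74), all on the plus strand, and 55568710 on chromosome 14 (42 and 60), minus strand. The sites at 111576571 and 35385003 were members only through replicate 1, so their ratios are descriptions. The other 7, apart from the chromosome 16 site, passed the same exact binomial test, with adjusted p from 0.00024 to 0.040.

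**Figure D4:**
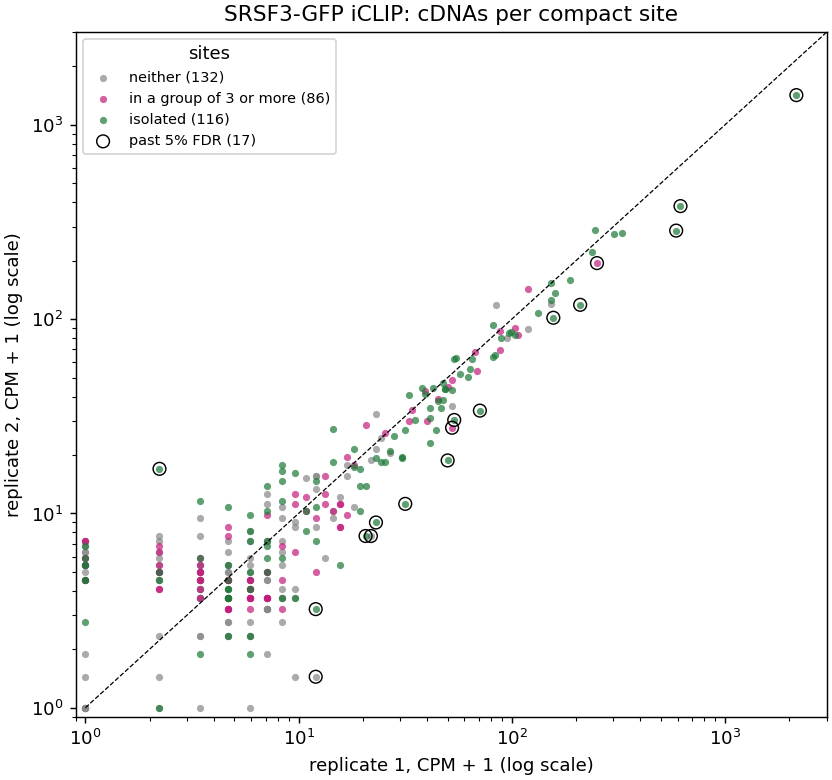
CPM + 1 of each of the 334 sites in replicate 1 (horizontal) and replicate 2 (vertical), both on log scales, coloured by class, with a dashed line of equality and black rings around the 17 sites that differed. Most points lie near the line, 194 sites are higher in replicate 1, and 16 of the 17 rings lie below the line.

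The share of a site's cDNAs that came from the other libraries was lowest at grouped sites. Over the whole merged track that share was 27.1%. It was 29.8% over the isolated sites together, 10.1% over the grouped sites and 32.0% over the rest, with medians per site of 27.3%, 9.09% and 23.5%. Each site was tested against the share of the whole track (exact binomial test, two-sided, adjusted by Benjamini-Hochberg over all 410 sites). Of the 334 sites, 52 were higher and 44 lower in the other libraries at a 5% false discovery rate, against 17.6% of all sites of the track called higher and 13.9% called lower. These calls lean on the choice of sites. Without the other libraries 24 of the 52 would still have a base with 11 cDNAs, and without the replicates 5 of the 44 would, so the remaining 28 and 39 were members only through the libraries in which they were high and are described, with no support drawn from their count. Among the 86 grouped sites 30 were lower and 0 higher, all 30 of them members only through the replicates, and 76 of 86 had a share below that of the track. Among the 116 isolated sites 29 were higher, 20 of which would pass without the other libraries, and 9 lower, 5 of which would pass without the replicates. Among the 132 others 23 were higher and 5 lower, and 4 and 0 of these would pass. With replicate 1 left out of the test, 32 isolated sites were higher and 9 lower, 0 grouped sites higher and 29 lower, and 29 of the others higher and 5 lower. With replicate 2 left out, the counts were 18 and 10, 0 and 25, and 14 and 2 in the same order. The other libraries carry other identifiers and dates in the header, and whether their cells or handling differed was not tested.

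Within groups, the likely Myh6 sites drew 9.09% of their cDNAs from the other libraries (393 of 4325), with 23 of 48 sites called lower. The likely Actc1 sites drew 5.80%, the plus-strand sites at the likely Myh7 locus 12.1%, the likely titin sites 14.4%, the likely Tnnt2 sites 17.04% and the likely Mybpc3 sites 17.4%. All 6 groups were under the share of the track. This is a description only, because every grouped site called lower was a member only through the replicates. Among the 20 strongest sites, 10 were higher in the other libraries and 8 lower. All 10 would pass the threshold without the other libraries, and 3 of the 8 without the replicates. Higher were the 2 parts of the chromosome 5 locus (41.9% and 40.7%), the chromosome 16 minus-strand site (35.4%) and the chromosome 9 plus-strand site at 123371061 (45.4%). Lower was the likely 7SK site (21.1%, adjusted p = 6.3e-26 by the exact test), while the likely U1 site (29.2%, adjusted p = 0.11) did not pass.

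A few sites came mostly from the other libraries, through which they became members, and are given with no test. On the plus strand of chromosome 6, from 72756956 to 72757016, 222 cDNAs fell over 61 nt with 99.6% isolation, and 191 of them (86.0%) were from the other libraries, with 16 in replicate 1 and 15 in replicate 2. The site at 110252416 to 110252417 on chromosome 12, minus strand, had 44 of 48, and on the plus strand of chromosome 10, 9820778 to 9820779 had 42 of 47. The base 47600855 on chromosome 6, minus strand, had 16 of 17. The reverse was seen at the base 87635948 on the minus strand of chromosome 8, which had 6 cDNAs in replicate 1, 38 in replicate 2 and 2 in the other libraries (4.35%).

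**Figure D5:**
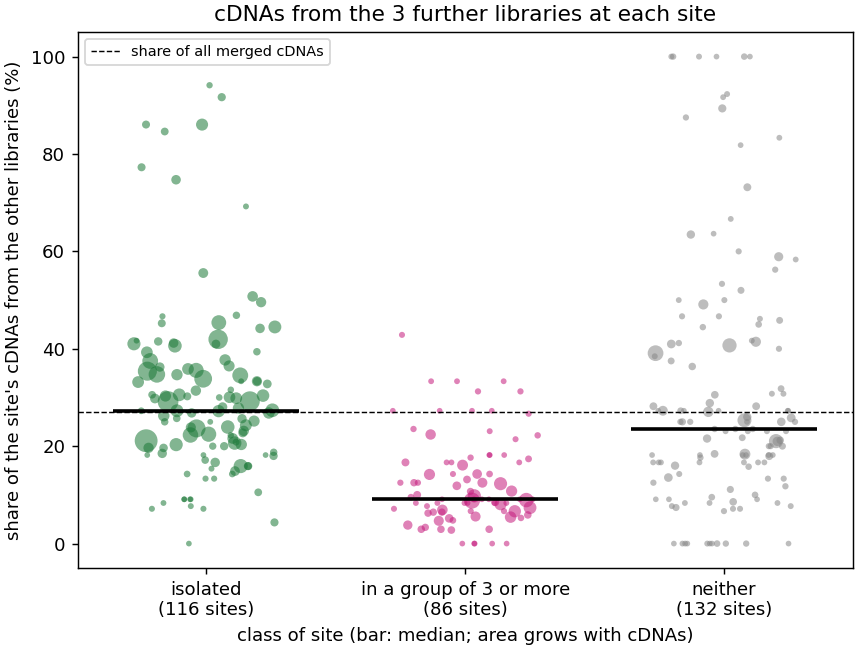
Share of each site's merged cDNAs that came from the 3 further libraries, in percent (vertical), by class of site (horizontal, points spread sideways at random). Point area grows with the site's cDNAs, black bars are class medians and the dashed line is the share over the whole track, 27.1%. Most grouped sites lie below the line, and isolated sites lie on both sides of it.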

How the data were processed

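SRSF3-GFP iCLIP was measured in 2 replicates, grouped by the labels. The authors' deposited tracks hold a signed score per nucleotide whose size is a whole number of cDNAs, on mm9 with annotation Ensembl 59 per the file headers, and reads were mapped with Bowtie 0.10.1 per the submitters' processing notes. Scores are not scaled to library size. No source used here says how duplicates or reads with several matches were handled. The merged track sums 5 libraries per its header, and merged minus both replicates is taken here as the other 3. This is inferred, because the headers of both replicates say replicate 1 and share 1 library identifier. Positions are 1-based. A site's cDNAs were summed from its first to its last hot position and divided by the library total, per 1000000 (CPM). Log2 ratios are set against the library totals after adding 1 cDNA, divided between the replicates as their totals are. Whether a called site would reach 11 cDNAs at a base without the libraries in which it was high was counted after seeing the data. Exact binomial tests (scipy 1.17.1) and intervals cover counting error only, and the limit of a 0 is 3 cDNAs. The code was tested on simulated counts. Median width has a 95% order-statistic interval.

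Sites were named by rule: the 20 with most cDNAs, the 10 with the largest ratio between replicates each way among those past the threshold, the 5 widest, the 5 with the highest base, and every group. Other sites named here, including those mostly from the other libraries, were chosen after their values were seen. Members, lists and tests were chosen with earlier results of these data known. Sequences are GENCODE M21 transcripts (GRCm38), and no coordinate was converted between builds. The 6 heart samples and an mm9 genome were not used here, and 1 small RNA that matched by distance is not reported here.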

Additional observations from a re-analysis of the deposited data

Results flagged for a closer look

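The merged track holds 6 compact sites with no cDNA in replicate 1 or replicate 2, so their signal lies outside the comparison of replicates. Each was a single base with 11 to 19 cDNAs, all from the other libraries. They lay at 23685771 on the minus strand of chromosome 17 (19 cDNAs), 128714242 on the minus strand of chromosome 6 (17), 22086104 on the minus strand of chromosome 13 (13), 115275119 on the plus strand of chromosome 11 (13), and 96126023 on the plus and 96138585 on the minus strand of chromosome 3 (11 each). A count of 0 allows up to 3.68 CPM in replicate 1 and 1.33 CPM in replicate 2.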

How the results depend on the processing

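No paired analysis was possible because the 2 iCLIP replicates are 1 group, and the hearts that share their numbers are not analysed here. The number of hot positions was 1965 with a minimum of 8 cDNAs and 735 with a minimum of 15, and the number of sites 581 and 207. Leaving out 1 replicate gave 456 to 834 hot positions, 134 to 236 sites and a median width of 6 to 8 nt, and the lower counts are those without replicate 2, the deeper library. The share of isolated sites was 28.4% with flanks of 20 kb, 25.8% with positions within 20 nt joined and 46.0% with positions within 500 nt joined, an alternative chosen after seeing the data, and 37.3% to 39.8% without 1 replicate. At a 1% false discovery rate 10 sites differed between replicates instead of 17. Without 1 replicate, 69 to 104 sites differed in the other libraries, against 96. The other alternatives left these counts within 1.5 times and the median width within its interval. Depth limits the replicate test: 63 of 334 sites had too few cDNAs to enter it.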
